A study of Mus musculus with 6 samples.

Results

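Interferon-inducible sensors of cytosolic DNA and RNA and interferon-inducible GTPases were examined in total RNA of mouse brain, on 6 whole-transcript arrays whose probe sets each cover a stretch of an exon. The genes were *Aim2*, *Ifi204*, *Ifi206*, *Ifi213*, *Irgm1*, *Irgm2*, *Igtp*, *Ifi35* and *Dhx58*, so 9 of the 5017 genes measured. They were chosen with earlier results of these data known, and probe sets were assigned to them by symbol alone. The 9 genes carried 43 of the 58919 tested probe sets. *Ifi206* stood in the array's annotation under the older name Gm4955 and *Ifi213* under E030037K03Rik. Another 3 probe sets carried several symbols, *Ifi204* among them, and 2 carried the symbol E430029J22Rik, which RefSeq lists as an older name of both *Ifi213* and *Ifi208*. These 5 are given apart below and were not added to any of the 9 genes in the main fits. In an alternative run the 3 probe sets of several symbols were added to *Ifi204*. The 2 of E430029J22Rik were fitted under that symbol, as a separate gene among the 5017.

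The 3 knockout arrays came from mice with the genotype APPPS1-FVBxABCC1 and the 3 control arrays from APPPS1-FVB mice. All 6 therefore carry the APPPS1 transgenes, driven by a *Thy1* promoter that is active in neurons, which lead to amyloid plaques, and the groups differ in *Abcc1*, the gene of an ATP-driven exporter of organic anions. The labels give no age, sex or batch. They do not say which strain the *Abcc1* allele came from or whether the arrays are separate animals. A p-value here sets the group difference against the variance between these samples, and that variance may be technical. *Abcc1* itself was not analysed here, so it could not serve to check the labels. A gene with fewer expressing cells and one with less RNA per cell cannot be told apart in whole brain.

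Type I interferon signals through the kinases Jak1 and Tyk2 to transcription factors that bind the interferon-stimulated response element in the promoters of target genes. Aim2 and the Ifi200 proteins belong to the PYHIN family, which typically, though not in every member, pairs a pyrin domain with 1 or more DNA-binding HIN domains. Aim2 assembles an inflammasome on cytosolic DNA. Irgm1, Irgm2 and Igtp (also called Irgm3) are the regulatory members of the immunity-related GTPases and act on the membranes of vacuoles and in autophagy. Dhx58, also called LGP2, modulates the RNA sensors RIG-I and MDA5, and Ifi35 binds the related protein Nmi. In the brain with amyloid, interferon-inducible genes are known mainly from microglia near plaques.

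The core of an interferon-stimulated response element was looked for as a description. The genes were chosen as interferon-inducible, so a high share among them follows in part from the choice and is no independent result. The pattern was GAAA, 2 bases of any kind and GAAA again, on either strand, in RefSeq promoter windows of the build GRCm38.p6 that run from 250 bases before to 50 bases after a gene's start. Windows were present for 7 of the 9 genes, and 5 of the 7 held the pattern, against 3.44% of all 32851 windows. These 5 are not independent, since the windows of *Igtp* and *Irgm2*, and those of *Ifi206* and *Ifi213*, are nearly alike. The stretches around it are printed 5′ to 3′ with the matches in capitals. The *Irgm1* stretch holds 2 matches that overlap.
Irgm1: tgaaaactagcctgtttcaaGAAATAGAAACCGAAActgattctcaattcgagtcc
Igtp: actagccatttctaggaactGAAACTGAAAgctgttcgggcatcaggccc
Irgm2: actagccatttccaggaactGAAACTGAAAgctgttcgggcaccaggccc
Ifi206: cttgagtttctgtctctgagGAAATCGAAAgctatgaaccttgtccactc
Ifi213: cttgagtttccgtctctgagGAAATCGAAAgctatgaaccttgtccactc

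The *Irgm1* stretch lies at chr11:48871415-48871470 on the minus strand, that of *Igtp* at chr11:58199502-58199551 and that of *Irgm2* at chr11:58214893-58214942, both on the plus strand. The *Ifi206* stretch lies at chr1:173491329-173491378 and the *Ifi213* stretch at chr1:173599316-173599365, both on the minus strand. The first matching base is 30, 34, 64, 40 and 73 bases before the annotated start in the order printed. The windows of *Igtp* and *Irgm2* aligned with 247 identical bases over 271 columns (91.1%), and those of *Ifi206* and *Ifi213* with 263 over 267 (98.5%). The windows of *Aim2* and *Ifi35* did not hold these letters. *Ifi204* and *Dhx58* had no window in the table. A match is a description and says nothing about binding in these brains.

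Signals of these genes were low. Values are log2 signals as deposited, and since the table has no detection call, the 184 probe sets of olfactory receptor genes, nearly silent in brain, served as a yardstick. Their median was 3.38 and their 95th percentile 5.03. Of the 43 probe sets, 20 had a mean above 5.03, and the median of the 43 was 4.74, against 7.05 over all tested probe sets. *Irgm1* stood above the yardstick at 3 of 3 probe sets, *Aim2* at 4 of 5, *Ifi35* at 5 of 7, *Igtp* at 2 of 4, *Dhx58* at 5 of 13 and *Ifi204* at 1 of 5. *Irgm2*, *Ifi206* and *Ifi213* stood above it at none of 1, 2 and 3, so their differences concern signals in the range of silent genes. The median standard error of a difference was 0.17 for the 43 probe sets, against 0.13 over all. Signals of different probe sets also differ by how well their probes bind, so their order is no order of RNA amounts.

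**Figure D1:**
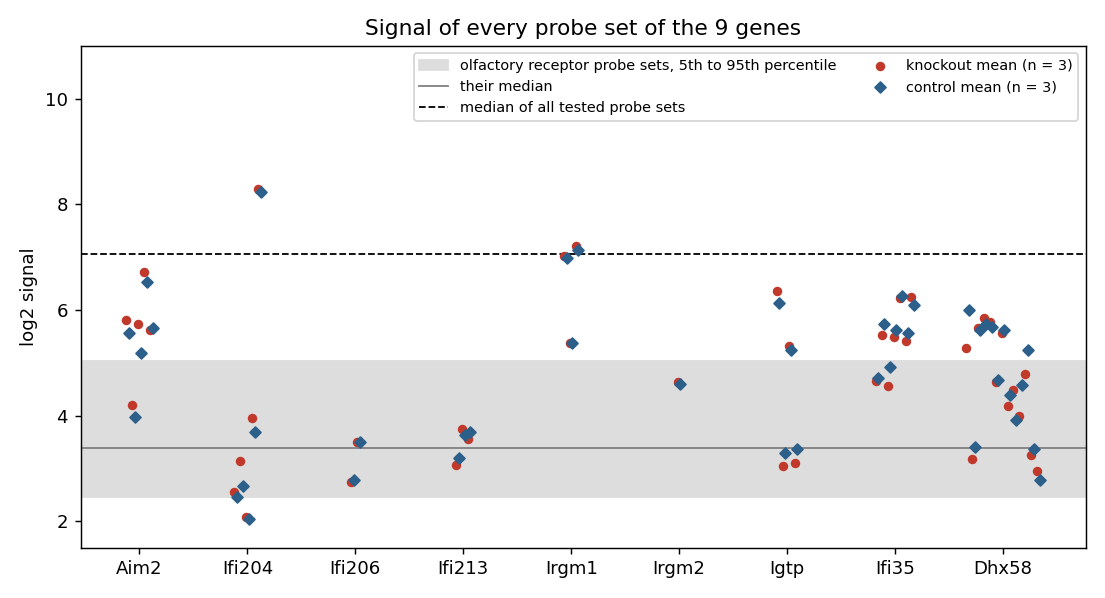
Log2 signal (vertical axis) of each of the 43 probe sets, grouped by gene, as the mean of 3 knockout arrays (red circles) and of 3 control arrays (blue diamonds). The grey band spans the 5th to the 95th percentile of 184 olfactory receptor probe sets (2.46 to 5.03) and the dashed line is the median of all tested probe sets (7.05). Only 1 probe set of *Ifi204* and 1 of *Irgm1* have means above that line.

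The array medians were 7.05 to 7.09 in knockouts and 7.04 to 7.06 in controls, and pairs of arrays correlated between 0.984 and 0.990. Neuronal and astrocyte markers were bright on all 6 arrays. The mean log2 signal of 5 neuronal genes was 11.08 to 11.18 in knockouts and 11.17 to 11.21 in controls, and that of 6 astrocyte genes 11.07 to 11.17 in knockouts and 11.23 to 11.38 in controls. Of 16 microglial markers only *Cd68* and *Ptprc* were measured, with a mean of 7.83 to 8.48 in knockouts and 8.54 to 8.66 in controls. The signal of these 2 genes was lowest in knockout 2 (7.83), and it is no measure of the number of microglia. Of 18 lymphocyte markers 6 were measured, at 6.18 to 6.45 in knockouts and 6.30 to 6.46 in controls. The part of such markers in the values below was not tested.

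None of the 43 probe sets passed the threshold of an adjusted p below 0.05 (limma, Benjamini-Hochberg over all tested probe sets), where 0.00509% of all tested probe sets did. The smallest adjusted p among them was 0.482. As values and not calls, knockouts were higher at 21 and lower at 22. The median log2 difference was -0.01, against 0.01 over all tested probe sets. Quantile normalization gave the same split of the 43. Over all tested probe sets the split turned from 30662 higher and 27805 lower to 28191 higher and 30655 lower. Their median became -0.01, so the contrast of the 2 medians depends on the processing. Raw p-values below 0.05 were found at 3 higher (6.98% of 43, background 4.75%) and 3 lower probe sets (6.98%, background 2.94%). All 3 knockout values lay above all 3 control values at 3 probe sets (6.98%, background 7.94%) and below them at 2 (4.65%, background 5.52%). The shares of probe sets without overlap were near the background in both directions.

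**Figure D2:**
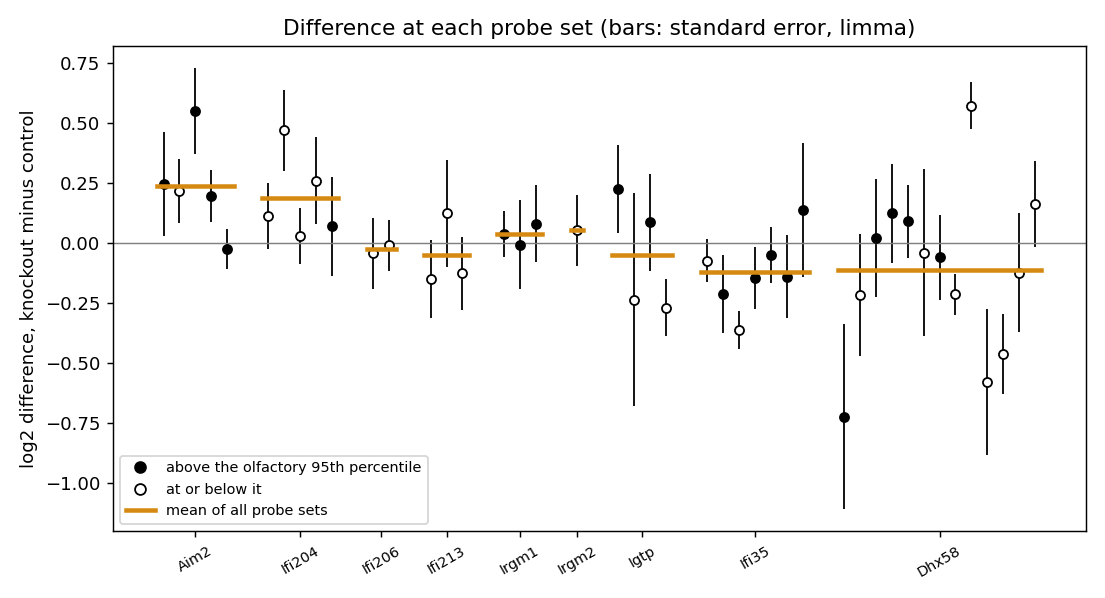
Log2 difference, knockout minus control (vertical axis), at each of the 43 probe sets in ID order within each gene, with standard errors from limma as bars. Filled points have a mean signal above 5.03, open points do not, and orange lines are the mean over all probe sets of a gene. Those means run from -0.12 for *Ifi35* to 0.24 for *Aim2*, while single probe sets of *Dhx58* spread from -0.72 to 0.57.

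When each gene was represented by the mean of its probe sets, 4 of the 9 were higher and 5 lower, with a median log2 difference of -0.03, against 0.00 over all 5017 genes. None passed, and none of the 5017 did either (background 0%). The groups did not overlap, with the knockouts higher, in 2 of 9 genes (22.2%, background 11.3%), namely *Aim2* and *Ifi204*, and in none with the knockouts lower (background 8.85%). By the brightest probe set of each gene, 7 were higher and 2 lower with a median of 0.08, against -0.02 over all genes, and again none passed, of the 9 or of all genes (0%). The brightest probe set and the mean over all probe sets differed in sign for *Ifi213*, *Igtp* and *Dhx58*.

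**Figure D3:**
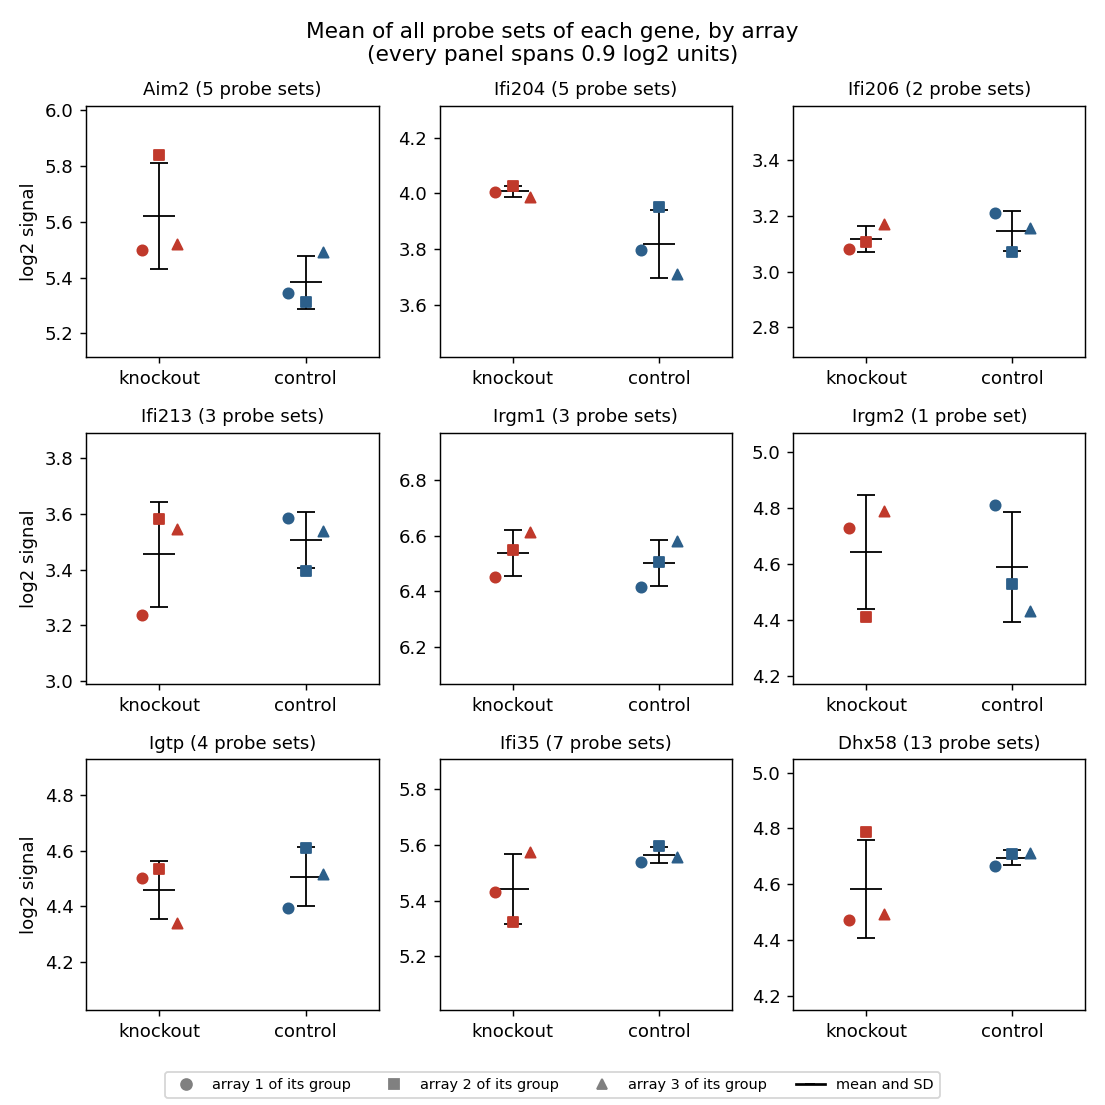
Mean log2 signal over the probe sets of each of the 9 genes (vertical axis) on each knockout array (red, left) and each control array (blue, right); black bars are the group mean and SD, and every panel spans the same range. The knockout points of *Aim2* and *Ifi204* lie above all control points, *Aim2* by 5.50 against 5.49 at the nearest pair, and the other 7 genes overlap.

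Among the DNA sensors, *Aim2* had the largest mean difference of the 9 genes. Its mean over 5 probe sets was 5.50, 5.84 and 5.52 in knockouts 1, 2 and 3, against 5.34, 5.31 and 5.49 in controls 1, 2 and 3. Knockout 2 stood highest, and the other 2 knockouts were close to control 3. The log2 difference was 0.24 (SE 0.10, 95% interval 0.01 to 0.46), or 1.18-fold, with a limma adjusted p of 0.346, and it was 0.13 without knockout 2. That array had the lowest signal of *Cd68* and *Ptprc*.

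The brightest probe set of *Aim2*, 10351871, read 6.61, 6.92 and 6.64 in knockouts and 6.49, 6.52 and 6.57 in controls. The groups did not overlap, and the log2 difference in the fit of brightest probe sets was 0.20 (SE 0.09, adjusted p = 0.567). Probe set 10351870 of *Aim2* read 5.59, 6.06 and 5.55 in knockouts and 5.22, 4.95 and 5.38 in controls. Here too every knockout stood above every control, with a log2 difference of 0.55 (SE 0.18), or 1.46-fold (adjusted p = 0.598, raw p of 0.0213). It was 0.39 without knockout 2. The remaining 3 probe sets of *Aim2* overlapped between groups, with log2 differences of 0.25 at 10351868, 0.22 at 10351869 and -0.03 at 10351872.

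*Ifi204*, a PYHIN protein also called p204, was higher at 5 of 5 probe sets, by 0.03 to 0.47, but 4 of the 5 had signals in the range of the olfactory receptors. Its mean was 4.01, 4.03 and 3.99 in knockouts, against 3.80, 3.95 and 3.71 in controls. Knockouts were almost equal and control 2 came nearest to them. The log2 difference was 0.19 (SE 0.07, 95% interval 0.03 to 0.34), or 1.14-fold, with an adjusted p of 0.285, and 0.13 to 0.25 with any 1 array left out. The 1 probe set well above the yardstick, 10360387, read 8.30, 8.03 and 8.56 in knockouts and 8.21, 8.56 and 7.91 in controls. These overlapped throughout, with a log2 difference of 0.07 (SE 0.20, 95% interval -0.41 to 0.55, adjusted p = 0.930). Probe set 10360384, with a raw p of 0.0303 (adjusted p = 0.621), differed by 0.47 at a mean signal of 3.14 in knockouts and 2.67 in controls.

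The 3 probe sets that carry the symbols Mnda and *Ifi204* together follow those of *Ifi204* in ID order. Probe set 10360388 read 6.76, 7.31 and 6.73 in knockouts, against 6.53, 6.14 and 6.34 in controls. Every knockout stood above every control, as at probe set 10351870 of *Aim2*, and knockout 2 was again the highest. The log2 difference was 0.60 (SE 0.19), or 1.51-fold (adjusted p = 0.593, raw p of 0.0191). The other two, 10360389 and 10360390, differed by 0.07 and 0.38 and overlapped between groups. Which gene these probe sets read is not settled by their annotation. With all 3 added to the mean of *Ifi204*, the log2 difference of that mean was 0.25 (SE 0.06, limma adjusted p = 0.213).

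*Ifi206* and *Ifi213*, further PYHIN genes of the same cluster, were at the level of silent genes. PYHIN genes are close paralogues, so a probe set of 1 may also read another, and the values of each are uncertain to that extent. The mean of *Ifi206* was 3.08, 3.11 and 3.17 in knockouts and 3.21, 3.07 and 3.16 in controls, a log2 difference of -0.03 (SE 0.06, adjusted p = 0.862). The mean of *Ifi213* was 3.24, 3.58 and 3.55 in knockouts and 3.58, 3.39 and 3.54 in controls, a log2 difference of -0.05 (SE 0.10, adjusted p = 0.849). The groups of both genes overlapped.

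The symbol E430029J22Rik, shared as an older name by *Ifi213* and *Ifi208*, had groups that lay apart at 1 of its 2 probe sets. Probe set 10351881 read 2.40, 2.59 and 2.46 in knockouts, against 3.21, 3.11 and 3.12 in controls. Every knockout was lower, by a log2 difference of -0.66 (SE 0.09, adjusted p = 0.353), yet all 6 values lay below the olfactory receptor median of 3.38. It was the only gene of 5017 past the threshold by brightest probe set when the variance was modelled with a trend on signal and robust moderation (limma adjusted p = 0.0273), chosen here after its values were seen. Its other probe set, 10351883, read 2.77, 2.63 and 2.49 in knockouts and 2.69, 2.64 and 2.44 in controls, a log2 difference of 0.04. In ID order both follow probe sets of *Aim2* and *Ifi209*, apart from those annotated E030037K03Rik, which stand beside *Ifi206* and *Ifi207*.

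**Figure D4:**
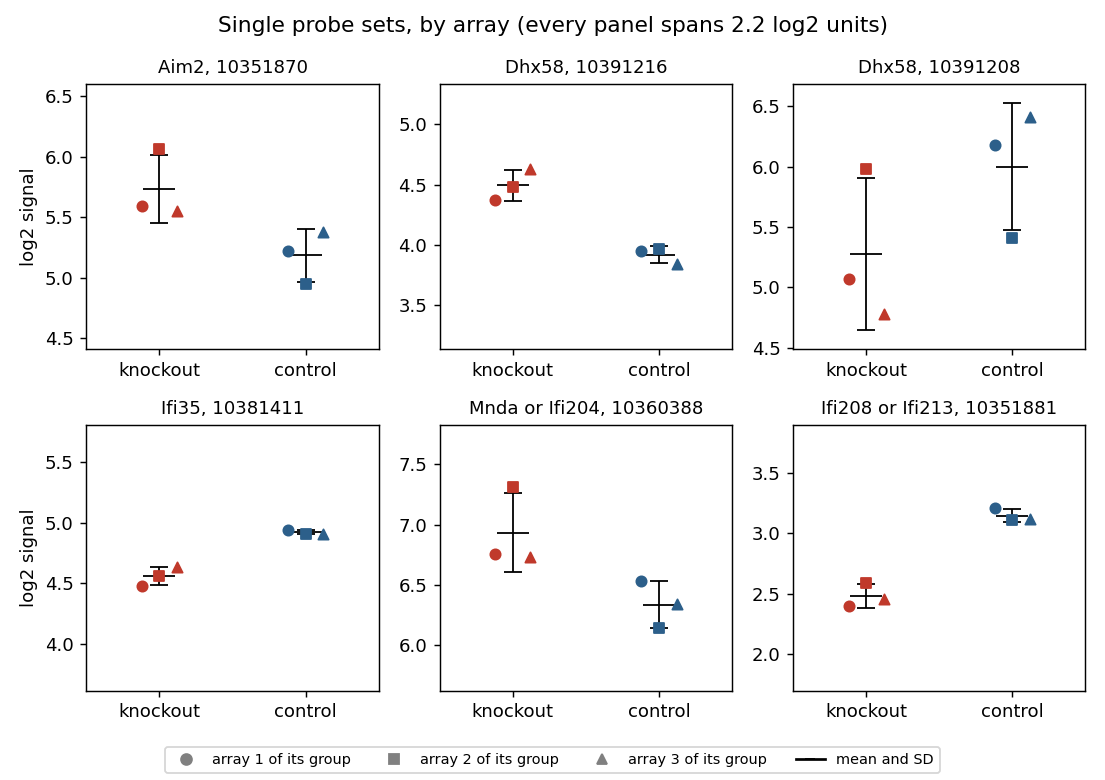
Log2 signal (vertical axis) at 6 single probe sets on each knockout array (red, left) and control array (blue, right), with group mean and SD in black and the same span in every panel. Panels show the probe set with the smallest raw p of its gene or shared symbol, except *Dhx58* 10391208, taken for its lowest difference. Groups are apart at all but 10391208, which follows in part from this choice. They are apart upward at *Aim2*, *Dhx58* 10391216 and the probe set shared by Mnda and *Ifi204*, and downward at *Ifi35* and at the probe set of *Ifi208* or *Ifi213*. Of all tested probe sets, 7.94% lay apart upward and 5.52% downward. In the main limma fit of all probe sets, the smallest adjusted p in the 6 panels was 0.353.

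Over the mean of their probe sets, log2 differences of the GTPases ran from -0.05 to 0.05. *Irgm1*, which is needed for control of intracellular bacteria and for autophagy, was the only one above the yardstick at all its probe sets, and its mean was 6.45, 6.55 and 6.61 in knockouts and 6.42, 6.51 and 6.58 in controls. Groups overlapped closely, with a log2 difference of 0.04 (SE 0.06, 95% interval -0.11 to 0.19, adjusted p = 0.833). Its 3 probe sets differed by -0.01 to 0.08, and their SD of 0.04 was at percentile 3.54 of genes with at least 3 probe sets. *Irgm2* had 1 probe set, which read 4.73, 4.41 and 4.79 in knockouts and 4.81, 4.53 and 4.43 in controls. Its log2 difference was 0.05 (SE 0.13, 95% interval -0.24 to 0.34, adjusted p = 0.875).

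*Igtp*, whose gene neighbours *Irgm2* on chromosome 11, averaged 4.50, 4.53 and 4.34 in knockouts and 4.40, 4.61 and 4.52 in controls. The log2 difference of this mean was -0.05 (SE 0.07, 95% interval -0.22 to 0.13, adjusted p = 0.810). Its brightest probe set, 10376327, read 6.35, 6.30 and 6.43 in knockouts, within the 6.04, 5.83 and 6.53 of the controls, a log2 difference of 0.23 (SE 0.17, adjusted p = 0.704) that was 0.075 without control 2 and 0.43 without control 3. The groups overlapped at all 4 of its probe sets.

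*Dhx58* had the least even response among its 13 probe sets. Its mean was 4.47, 4.79 and 4.49 in knockouts and 4.67, 4.71 and 4.71 in controls, so knockout 2 stood above all controls and the other knockouts below them. The log2 difference was -0.11 (SE 0.08, 95% interval -0.31 to 0.09, adjusted p = 0.581). It was -0.21 without knockout 2, -0.056 without knockout 1 and -0.066 without knockout 3. Of the 13 probe sets 5 were higher and 8 lower. Their differences had an SD of 0.34, at percentile 95.9 of the 4208 genes with at least 3 probe sets, where the median was 0.15. Signals of 8 of the 13 were at or below the yardstick.

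Probe set 10391216 of *Dhx58* had the smallest p of the 43. It read 4.37, 4.48 and 4.63 in knockouts, against 3.95, 3.97 and 3.84 in controls. The log2 difference was 0.57 (SE 0.10), or 1.49-fold (adjusted p = 0.482, raw p of 0.001), at signals below the 5.03 of the yardstick. The probe set on the other end of the range, 10391208, read 5.07, 5.98 and 4.78 in knockouts and 6.18, 5.41 and 6.41 in controls. Knockout 2 stood above control 2 there, and the log2 difference of -0.72 had an SE of 0.38 (adjusted p = 0.689). Probe sets 10391218 and 10391215 differed by -0.46 and -0.21, with adjusted p of 0.621 and 0.644 and raw p of 0.0317 and 0.0462, and only the groups of 10391215 did not overlap.

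Whether single probe sets departed from the rest of their gene was tested with limma's diffSplice. It called 246 of 53097 probe sets (0.463%) and none of the 42 it could test among these genes. For 10391216 the difference from the rest of *Dhx58* was 0.74 with a diffSplice adjusted p of 0.548. diffSplice pools 1 variance per gene, and on simulated arrays with unequal noise it also called unchanged probe sets. A fit that gives each probe set its own variance, added after seeing the data, called 0 of all and 0 of these, and 10391216 had an adjusted p of 0.716 in it (raw p of 0.0015).

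*Ifi35* was lower at 6 of 7 probe sets. Its mean was 5.43, 5.32 and 5.57 in knockouts, against 5.54, 5.60 and 5.56 in controls. Knockout 3 lay among the controls and the other 2 knockouts below them. The log2 difference was -0.12 (SE 0.07, 95% interval -0.28 to 0.04, adjusted p = 0.458). It was -0.062 without knockout 2 and -0.19 without knockout 3. Probe set 10381411 carried the clearest difference, reading 4.48, 4.56 and 4.63 in knockouts, against 4.94, 4.91 and 4.91 in controls. All knockouts were lower, by a log2 difference of -0.36 (SE 0.08), with an adjusted p of 0.522 (raw p of 0.0033). The brightest probe set, 10381413, differed by -0.05 (SE 0.10, adjusted p = 0.905).

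Other genes of the interferon system were taken from lists written for this purpose, and none of their measured genes passed by brightest probe set or by mean. Of the 9 further PYHIN genes listed, 5 were measured, 3 higher and 2 lower by the mean of their probe sets (median log2 difference 0.04). By brightest probe set the sign of the median turned, with 1 higher, 4 lower and a median of -0.10. *Ifi203* had the smallest p of these, with a brightest probe set at 6.09, 5.94 and 6.14 in knockouts, against 6.49, 6.48 and 6.93 in controls. All knockouts were lower there, by a log2 difference of -0.58 (SE 0.14, adjusted p = 0.441), but 3 of its 6 probe sets were higher and its mean differed by 0.09 (SE 0.10). *Ifi209* differed by -0.41 (SE 0.37) at its brightest probe set and by 0.04 over its mean, at signals of silent genes.

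Of 25 further GTPases of the IRG and GBP families 3 were measured, *Ifi47*, *Gm12250* and *Gm5431*, and all were higher at their brightest probe sets. *Ifi47*, an immunity-related GTPase, read 5.55, 5.26 and 5.58 in knockouts and 5.28, 5.40 and 5.28 in controls, a log2 difference of 0.14 (SE 0.10, adjusted p = 0.674), and *Gm12250* differed by 0.14 (SE 0.10). Over the means of their probe sets 2 were higher and *Gm5431* showed no difference. Knockout 2 was the lowest knockout in each of the 3, unlike in *Aim2*.

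In the list of nucleic acid sensing and inflammasome genes, 11 of 29 were measured besides *Dhx58*, 8 higher and 3 lower by mean, with a median log2 difference of 0.02. By brightest probe set 4 were higher and 6 lower, and the median was -0.01. *Ikbke*, a kinase that phosphorylates the interferon regulatory factor Irf3, read 7.13, 6.89 and 7.01 in knockouts at its brightest probe set, against 7.42, 7.40 and 7.25 in controls. Knockouts were all lower (log2 difference -0.35, SE 0.08, adjusted p = 0.441), while its mean over 25 probe sets differed by -0.05. *Rnf135*, an E3 ligase of RIG-I, differed by -0.11 (SE 0.07).

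For the ligands, receptors and transcription factors, 9 of 36 genes were measured, 4 higher and 5 lower by mean, with a median of -0.06. *Ifng*, the gene of interferon gamma, differed by -0.09 (SE 0.07) and *Irf1*, a transcription factor induced by interferon, by -0.16 (SE 0.12) at their brightest probe sets, with adjusted p of 0.695 and 0.703.

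The effector list, written with earlier results of these data known, leaned lower in its values. Of 67 interferon-stimulated effectors other than *Ifi35*, 18 were measured. These are not 18 independent genes, since several are of the same family, such as *Slfn1*, *Slfn2*, *Slfn5*, *Slfn8* and *Slfn9*. *Ccl2*, *Ccl5* and *Ccl7* are another such family. By mean 15 were lower and 3 higher, with a median log2 difference of -0.10. Of all 5017 genes 2578 were lower and 2416 higher by mean, with a median of 0.00. By brightest probe set 13 were lower and 5 higher with a median of -0.05. Over all genes 2843 were lower and 2130 higher by brightest probe set, with a median of -0.02. *Lgals3bp*, a secreted glycoprotein, read 8.19, 7.78 and 7.89 in knockouts, against 8.34, 8.27 and 8.49 in controls. These values are of its brightest probe set, where all knockouts were lower (log2 difference -0.41, SE 0.12, adjusted p = 0.450). Its 6 probe sets ran from -0.41 to 0.42, and their mean differed by -0.20 (SE 0.13) with overlapping groups. *Xaf1*, a pro-apoptotic target of interferon, ran the other way at its brightest probe set. It read 6.17, 6.28 and 6.22 in knockouts, against 6.03, 6.14 and 5.96 in controls (log2 difference 0.18, SE 0.07, adjusted p = 0.515). Only 5 of its 9 probe sets were higher, with a range from -0.73 to 0.69, and their mean differed by 0.08 (SE 0.10) with overlapping groups. *Cd68* and *Ptprc* were also lower in the knockouts, and their part in the lower values of this list was not tested.

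Neighbouring genes were set beside the members, in the gene order of GRCm38.p6. The 4 PYHIN genes lie in 1 cluster on chromosome 1, and the nearest measured genes outside them are *Ackr1* and *Cadm3* on one side and *Ifi203* and *Ifi202b* on the other. *Ackr1*, a chemokine-binding receptor, read 8.67, 9.04 and 8.76 in knockouts at its brightest probe set, against 8.34, 8.21 and 8.39 in controls. All knockouts stood above all controls there, and knockout 2 was the highest (log2 difference 0.51, SE 0.11, adjusted p = 0.433). Its 3 probe sets differed by 0.02 to 0.51. Over their mean the difference was 0.21 (SE 0.11) and the groups overlapped, unlike those of *Aim2*. *Cadm3*, a neural adhesion molecule, differed by -0.15 (SE 0.08) at its brightest probe set and by 0.15 (SE 0.06) over its mean. Over that mean every knockout stood above every control, as in *Aim2* and *Ifi204* and in 11.3% of all genes. Its 17 probe sets ran from -0.33 to 1.60, with 11 higher. *Ifi202b* differed by -0.10 at its brightest probe set and by -0.11 over its mean. On chromosome 11, brightest probe sets beside *Irgm1* differed by 0.06 (*Trim41*), -0.11 (*Trim7*), 0.17 (*Gm5431*) and 0.14 (*Ifi47*). Beside *Igtp* and *Irgm2* they differed by -0.08 (*Mrpl22*), 0.14 (*Gm12250*), -0.22 (*4930438A08Rik*) and 0.06 (*Zfp692*). Beside *Dhx58* the values were -0.08 (*Nkiras2*), -0.11 (*Zfp385c*), 0.05 (*Kat2a*) and 0.05 (*Hspb9*), and beside *Ifi35* they were 0.00 (*Rundc1*), -0.02 (*Rpl27*), 0.14 (*Vat1*) and 0.01 (*Rnd2*). None of these neighbours passed the threshold.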

How the data were processed

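The authors deposited 1 table of log2 signals per probe set. Per the submitters' processing notes it was made with MAS5, with no version, and the log2 scale was read from its values (1.69 to 14.41). Scaling between arrays, the genome build and background correction are not given in the sources used here. The table analysed has 65535 probe sets, of which 6616 with IDs below the first annotated one were taken as control features and left out. Of the 58919 tested, 53644 had 1 symbol. Genes called measured are the 5017 with a 1-symbol probe set in this table, which need not hold the whole array. A listed gene without one was not assessed. Symbols were updated through RefSeq synonyms where unique.

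Signals were used without further normalization. Knockout minus control was fitted with limma 3.58.1 (R 4.3.3; lmFit, eBayes, no trend), with two-sided p-values adjusted by Benjamini-Hochberg across all probe sets or all genes, with 0.05 as the threshold. Genes were fitted as the mean of their 1-symbol probe sets and as the brightest one. For *Ifi204* the mean was also fitted with its probe sets of several symbols added. The same code was tested on simulated data. The number of arrays, 6, limits the precision, and for 3 against 3 the smallest two-sided p an exact test allows is 0.1. Equal replicate numbers gave correlations of deviations of 0.04, -0.07 and -0.10, so they were not treated as pairs. Named were all 9 genes, their probe sets with a raw p below 0.05, 2 genes per list with the smallest raw p and 2 neighbours on each side. Members and lists were chosen with earlier results of these data known. A planned comparison of protein sequences was not made.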

Additional observations from a re-analysis of the deposited data

How the results depend on the processing

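No probe set of the 9 genes passed under any alternative run, so their count stayed at 0, and the mean of probe sets called 0 genes throughout. The count over all probe sets, 3, became 21 with trend and robust moderation, 19 after the filter on the dimmest probe sets, 6 after quantile normalization and 7 each after centring on medians, with weighted arrays and at the looser threshold of 0.1. It became 0 with the replicate block and ran between 0 and 4 with 1 array left out (4 without knockout 2). By brightest probe set 0 genes became 1 with trend and robust moderation, the symbol E430029J22Rik. The 246 probe sets that departed from their gene became 136 after that filter, 180 to 353 with 1 array left out, and 0 in the fit added after seeing the data. The cause was not tested, except that the filter also tests fewer probe sets.

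The difference of *Aim2* stayed positive under all 13 alternatives, from 0.098 to 0.25. The brightest probe set of *Igtp* also stayed positive wherever it was used, from 0.075 to 0.43. Over the mean of probe sets the sign turned to -0.051 for *Ifi213*, -0.048 for *Igtp* and -0.11 for *Dhx58*. With 1 array left out, brightest probe sets ran from -0.11 to 0.28 for *Dhx58*, -0.088 to 0.24 for *Ifi204*, -0.092 to 0.078 for *Ifi206*, -0.045 to 0.31 for *Ifi213*, -0.11 to 0.063 for *Ifi35*, -0.063 to 0.21 for *Irgm1* and -0.027 to 0.17 for *Irgm2*. Means of probe sets then ran from -0.064 to 0.0058 for *Ifi206*, -0.11 to 0.058 for *Ifi213*, -0.0056 to 0.081 for *Irgm1* and -0.10 to 0.011 for *Igtp*. The replicate block changed no call of these genes, which stayed at 0. The brightest probe sets of *Ifi206*, *Ifi213*, *Irgm2* and *Dhx58* fell under the filter on dim signals and have no value there.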
